A study of Mus musculus with 9 samples.

Results

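The 10 Notch pathway genes described here are the ligand genes Jag1, Jag2 and Dll1, the receptor genes Notch1, Notch2 and Notch3, and the target genes Hey1, Hey2, Heyl and Hes1. They were taken by gene symbol from the 32289 features counted in all 9 libraries of the series. Each library was a single-cell RNA-seq library (10x Genomics droplets, reads counted as unique molecular identifiers, UMIs) from 1 pair of forelimb buds of 1 mouse embryo at E10.75 (37 to 39 somites). There were 3 wild-type (Wt) libraries, 3 E1C8Δ/Δ libraries and 3 E1C5Δ/Δ libraries. E1C8Δ/Δ embryos were homozygous for deletion of the regions EC1 and CRM8 near Grem1, and E1C5Δ/Δ embryos for deletion of EC1 and CRM5. Each allele lacks some, not all, of the limb bud enhancers of Grem1. Both alleles are germline deletions, present in every cell, and limbs of both mutants are tetradactyl. Nothing in the labels gave a treatment, and all groups shared the stage, the tissue and a Swiss Albino background.

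Notch receptors are transmembrane proteins that bind ligands of the Jagged and Delta families on neighbouring cells. Binding leads to cleavage of the receptor, and the freed intracellular domain joins the DNA-binding protein RBPJ to switch on target genes. Hes and Hey genes are the best known targets and encode transcriptional repressors of the basic helix-loop-helix class. In the limb bud the pathway is known for its role in the apical ectodermal ridge, in the growing blood vessels and in keeping muscle progenitors undifferentiated.

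Cells were assigned to populations by marker genes, none of which belongs to the Notch pathway, after each cell had been thinned to 10000 UMIs so that depth did not decide the assignment. Distal mesenchyme was mesenchyme with at least 2 UMIs of Hoxa13 and Hoxd13 in sum, the Hox genes of the future hand plate, and other mesenchyme was the rest. Distal mesenchyme held 2002 cells (37 to 432 per library), other mesenchyme 31831, ectoderm 449, endothelium 527 and muscle progenitors 1869. Of the distal cells 1032 had exactly 2 such UMIs, and 3418 cells of other mesenchyme had 1. The labelled populations carried their own markers: the summed level of the marker list was 754 to 1149 CPM (counts scaled to a common library size, the usual expression unit) for mesenchyme in distal cells, 1846 to 2270 CPM for ectoderm, 3321 to 4105 CPM for endothelium and 782 to 1002 CPM for muscle. In distal cells the ectoderm list reached 3.13 to 8.51 CPM, the endothelium list 19.7 to 26.5 CPM and the muscle list 3.68 to 10.5 CPM. The same lists set the populations, so these levels describe them and are not an independent check. In the ectoderm population the chondrogenic pair Sox9 and Col2a1 summed to 208 to 286 CPM, and in endothelium a megakaryocyte list ranged from 7.70 to 330 CPM between libraries; their part in the results was not tested. Median depth per cell ran from 16842 to 47591 UMIs. Wt replicate 3 and E1C8Δ/Δ replicate 1 kept 897 and 592 cells against 2100 to 8699 in the others, and both were left out in an alternative analysis. Pairs of libraries shared at most 0.378% of the barcodes of the smaller library. By Xist and Y-linked UMIs the 3 Wt embryos were male and 4 of the 6 mutant embryos were female, so that sex and genotype were partly confounded. The targeted gene Grem1, which encodes a secreted antagonist of BMP ligands, was lower in distal mesenchyme of the mutants: 67.0 to 77.3 CPM in Wt, 10.9 to 22.3 CPM in E1C8Δ/Δ and 9.77 to 20.9 CPM in E1C5Δ/Δ.

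RefSeq promoter windows (GRCm38.p6, 250 bases before to 50 after the start) were on hand for 7 of the 10 genes. Both windows with a match to a motif searched are shown, since Jag1 is the gene on which the distal results turn and Hey2 is a target gene. Capitals mark AATAAA, letters found in binding motifs of posterior Hox proteins, in Jag1, and TGGGAA, the core of the RBPJ site, or its reverse complement in Hey2.
Jag1, chr2:137116471-137116770, minus strand: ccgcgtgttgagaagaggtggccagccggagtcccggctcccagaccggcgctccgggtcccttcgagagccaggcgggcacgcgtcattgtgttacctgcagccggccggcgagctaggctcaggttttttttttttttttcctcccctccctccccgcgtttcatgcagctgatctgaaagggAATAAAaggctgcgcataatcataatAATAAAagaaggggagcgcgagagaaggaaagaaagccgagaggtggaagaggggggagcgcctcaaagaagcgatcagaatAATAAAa
Hey2, chr10:30842734-30843033, minus strand: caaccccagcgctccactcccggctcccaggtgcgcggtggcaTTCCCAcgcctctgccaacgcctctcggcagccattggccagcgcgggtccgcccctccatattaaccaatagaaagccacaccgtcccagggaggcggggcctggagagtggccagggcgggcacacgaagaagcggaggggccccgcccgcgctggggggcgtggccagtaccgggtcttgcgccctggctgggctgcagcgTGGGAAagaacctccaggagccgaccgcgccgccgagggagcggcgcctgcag
The Jag1 window held AATAAA 3 times, with first bases at window positions 186, 212 and 294, and the Hey2 window held TGGGAA 2 times, at positions 44 and 248. AATAAA was present on either strand in 19.6% of all 32851 promoter windows and TGGGAA in 25.6%. The letters CACGTG, the E-box bound by Hes and Hey proteins, were in 7.15% of all windows and in none of the 8 windows of the 7 genes. The motifs do not overlap one another in either window, and a match is a run of letters, not a measured binding site.

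Jag1 (ENSMUSG00000027276, chr2:137081456-137116644, minus strand, GRCm38) encodes Jagged1, a membrane-bound Notch ligand. It had its highest levels in ectoderm and distal mesenchyme. Over all 9 libraries its level in distal mesenchyme was 8.29 CPM at the lowest, 22.7 CPM at the median and 68.4 CPM at the highest, against 3.83, 4.54 and 5.99 CPM in other mesenchyme. The distal level was the higher in 9 of 9 libraries, and the ranges of the populations did not overlap. With library as a block, the difference was a log2 fold change of 2.39 (SE 0.23, 5.25-fold) with an adjusted p of 1.22e-07 by edgeR's quasi-likelihood test with Benjamini-Hochberg adjustment. Ectoderm held 21.8 to 49.1 CPM of Jag1 in the 6 libraries with enough cells, 5.40-fold above mesenchyme (log2 2.43, SE 0.15, adjusted p = 4.32e-11 by the same edgeR test). Endothelium was higher than mesenchyme by 0.79 on the log2 scale (SE 0.17) and muscle lower, at -0.51 (SE 0.13), with edgeR adjusted p-values of 3.23e-04 and 0.00241.

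Jag2 (ENSMUSG00000002799, chr12:112907819-112929776, minus strand) encodes the other Jagged ligand, and its transcripts were mostly in ectoderm and endothelium. Ectoderm held 47.9, 65.6 and 84.1 CPM at the lowest, median and highest library, and endothelium 10.3, 18.1 and 22.0 CPM. In mesenchyme the level was 0.674 to 1.47 CPM, so that no library overlapped with ectoderm. The ectoderm level was 60.8-fold that of mesenchyme (log2 5.92, SE 0.14) and the endothelium level 18.0-fold (log2 4.17, SE 0.19), with edgeR adjusted p-values of 6.46e-18 and 3.97e-13. Within mesenchyme Jag2 was lower in distal than in other cells by 0.87 on the log2 scale (log2 fold change -0.87, SE 0.21, edgeR adjusted p = 0.00231), the direction opposite to that of Jag1.

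Dll1 (ENSMUSG00000014773, chr17:15367354-15376872, minus strand) encodes a Delta ligand that is known in muscle progenitors and vessels. Distal mesenchyme gave 10 UMIs of Dll1 among 81084026, too few to test. Ectoderm held 2.82 to 9.22 CPM and endothelium 0.586 to 3.41 CPM, both above mesenchyme in every library with enough cells (edgeR log2 fold changes 6.30, SE 0.39, and 5.20, SE 0.34, adjusted p = 3.07e-11 and 7.65e-11). Dll1 was too low to be tested in other mesenchyme, so it entered these fits through the populations where it was high. The calls are therefore a description. Muscle cells held 0.145 to 3.96 CPM and were above mesenchyme in 9 of 9 libraries, without passing the count filter of that comparison.

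Notch1 (ENSMUSG00000026923, chr2:26457903-26516663, minus strand), a receptor known in vessels and epithelia, was at its highest in endothelium, with 150, 179 and 223 CPM at the lowest, median and highest of 7 libraries. Ectoderm followed with 83.1, 108 and 221 CPM, and the ranges of the populations overlapped. Both stood apart from mesenchyme, where 5.42 to 12.1 CPM were measured in the libraries compared, by 22.8-fold in endothelium (log2 4.51, SE 0.12) and 14.3-fold in ectoderm (log2 3.84, SE 0.11), with edgeR adjusted p-values of 6.88e-17 and 1.70e-16. Distal mesenchyme was below other mesenchyme in 9 of 9 libraries (log2 -0.74, SE 0.09, edgeR adjusted p = 2.74e-06). In muscle cells the difference from mesenchyme did not pass the threshold (log2 0.25, SE 0.15, edgeR adjusted p = 0.162).

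The other receptor genes were lower in ectoderm and endothelium than in mesenchyme. Notch2 (ENSMUSG00000027878, chr3:98013527-98150361, plus strand) reached 22.0, 31.7 and 50.4 CPM at the lowest, median and highest library in other mesenchyme and was lower in each other population compared. Its log2 fold changes were -0.67 (SE 0.05) for distal against other mesenchyme, -0.95 (SE 0.13) for ectoderm, -1.15 (SE 0.08) for muscle and -3.28 (SE 0.12) for endothelium against mesenchyme, all with an edgeR adjusted p of at most 4.36e-06. In endothelium its 1.76 to 3.46 CPM lay near the 2.14 CPM found in red blood cell precursors. Whether free RNA gave either level was not tested. Notch3 (ENSMUSG00000038146, chr17:32120820-32166852, minus strand), a receptor known in vessel-supporting cells, was at 21.7 to 33.6 CPM in distal and 24.2 to 36.9 CPM in other mesenchyme. It was lower in endothelium (log2 -1.86, SE 0.11), in ectoderm (-0.69, SE 0.12) and, by a small difference, in distal against other mesenchyme (-0.20, SE 0.05), with edgeR adjusted p-values of 2.51e-11, 8.84e-05 and 0.00128.

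Hey1 (ENSMUSG00000040289, chr3:8663359-8667256, minus strand), a target gene, was found in endothelium and distal mesenchyme. Distal cells held 30.8, 65.0 and 104 CPM at the lowest, median and highest library, other mesenchyme 7.57, 10.2 and 11.8 CPM, and endothelium 46.2, 76.2 and 95.2 CPM. The distal and endothelial ranges overlapped, and both were above the highest value of other mesenchyme. Hey1 was 5.59-fold higher in distal than in other mesenchyme (log2 2.48, SE 0.13, 9 of 9 libraries, edgeR adjusted p = 1.43e-11) and 6.38-fold higher in endothelium than in mesenchyme (log2 2.67, SE 0.09, edgeR adjusted p = 3.53e-15). In ectoderm it was lower (log2 -0.94, SE 0.16, edgeR adjusted p = 4.02e-05), whereas Jag1 was higher there.

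Hey2 (ENSMUSG00000019789, chr10:30832359-30842801, minus strand), whose promoter is shown above, was a low-count gene with 63 UMIs in all distal cells. It was higher in endothelium than in mesenchyme (0.473 to 3.74 against 0.271 to 0.669 CPM, log2 2.30, SE 0.37, edgeR adjusted p = 2.15e-05) and higher in distal than in other mesenchyme in 8 of 9 libraries (log2 0.71, SE 0.22, edgeR adjusted p = 0.0103; without Wt replicate 1 it was 0.59, adjusted p = 0.0602). Heyl (ENSMUSG00000032744, chr4:123233556-123249875, plus strand) was at its highest in ectoderm: 1.41, 9.71 and 14.8 CPM at the lowest, median and highest of 6 libraries against 0.0524 to 0.191 CPM in mesenchyme (log2 6.57, SE 0.41, edgeR adjusted p = 3.44e-11). Its mesenchyme level was too low to bring it into this fit. Heyl entered through ectoderm, so this call is a description. Endothelium gave 1 UMI of Heyl and distal mesenchyme 3. Hes1 (ENSMUSG00000022528, chr16:30064384-30067796, plus strand), the most widely used Notch target, was measured in every population, with 119 to 166 CPM in ectoderm, 63.9 to 101 CPM in endothelium and 43.5 to 93.3 CPM in muscle. Each was above mesenchyme in every library (log2 1.85, SE 0.09; 1.19, SE 0.09; and 0.73, SE 0.04; edgeR adjusted p at most 6.45e-10), while distal and other mesenchyme differed by -0.05 (SE 0.08, edgeR adjusted p = 0.680). With populations gated on all UMIs that Hes1 difference between distal and other mesenchyme was -0.21 (SE 0.08, edgeR adjusted p = 0.0330).

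**Figure D1:**
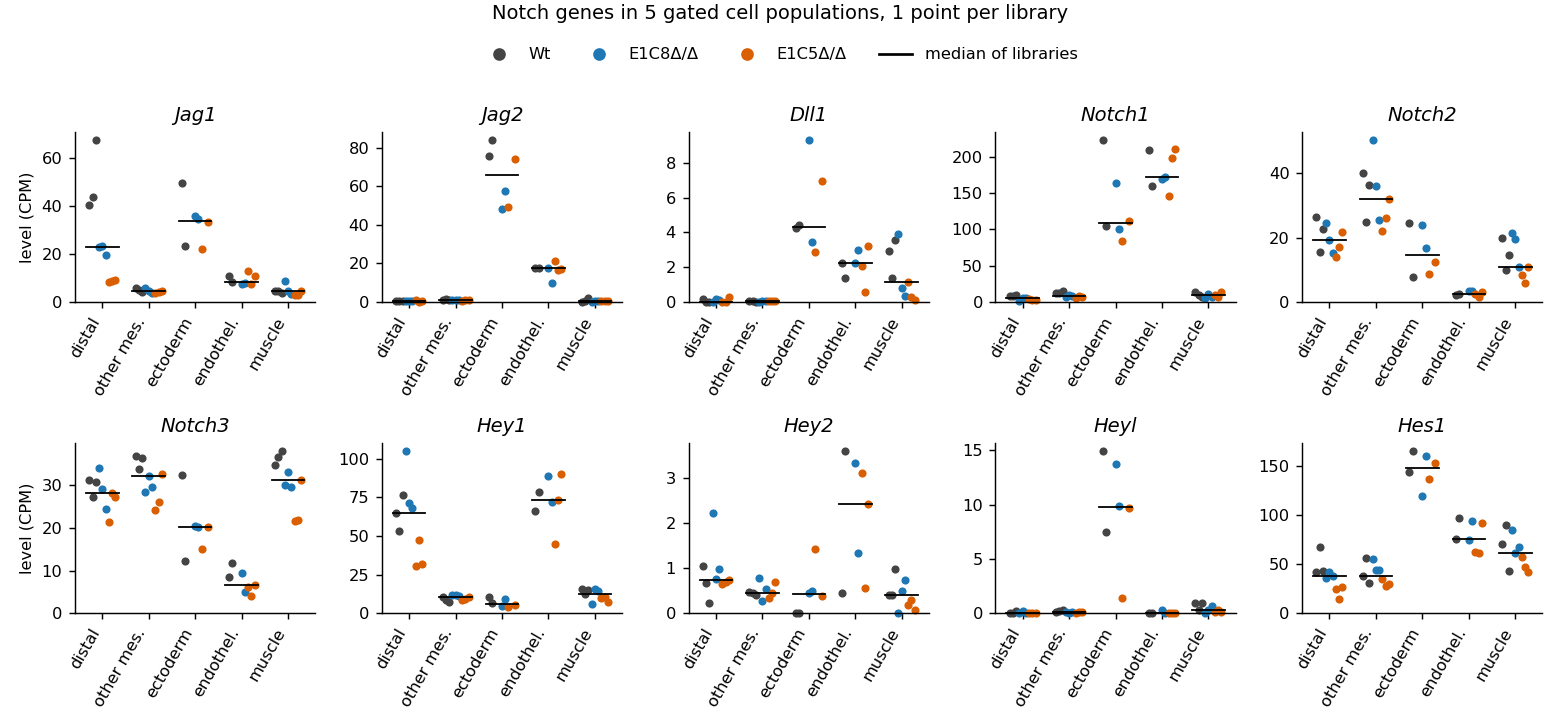
Level of each of the 10 genes (y axis, CPM) in the 5 gated populations (x axis), with 1 point per library coloured by genotype and a line at the median of the libraries; populations of under 20 cells in a library are left out. Jag1 and Hey1 stand above the other mesenchyme in the distal cells of every library, Jag2 and Heyl are at their highest in ectoderm, and Notch1 is at its highest in endothelium and ectoderm.

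In these comparisons of populations many genes differ, so the counts are read against the share of all genes. Of the genes tested, 7 of 8 passed the threshold (adjusted p under 0.05) in distal against other mesenchyme, where 50.4% of all 12456 genes did. The counts were 9 of 10 in ectoderm (51.9% of all genes), 9 of 9 in endothelium (75.6%) and 4 of 7 in muscle (58.7%), where the Jag2 call (-0.73, SE 0.27, edgeR adjusted p = 0.0292) was lost with DESeq2 (0.0620), with gates on all UMIs (0.150) and without Wt replicate 1 or 2 or E1C8Δ/Δ replicate 3 (up to 0.102). The median log2 fold change of the tested members was -0.12, 2.14, 2.30 and -0.04 in that order. The ectoderm and endothelium counts include Dll1, which entered those fits through these populations. The ectoderm count also includes Heyl, which entered that fit through ectoderm. A list of 42 other Notch pathway genes had 20 of 36 past the threshold in distal cells (10 higher and 10 lower), 19 of 39 in ectoderm (10 and 9), 35 of 40 in endothelium (17 and 18) and 23 of 36 in muscle (7 and 16). Among them Nrarp, a target gene whose product limits Notch signalling, was higher in all of them: by 2.54 (SE 0.11) in distal mesenchyme, 5.45 (SE 0.19) in ectoderm, 6.18 (SE 0.12) in endothelium and 1.73 (SE 0.20) in muscle on the log2 scale, with edgeR adjusted p-values of at most 1.24e-06. In endothelium the largest rises were those of Mfng, a sugar transferase that modifies Notch receptors (log2 9.64, SE 0.12), and of the ligand gene Dll4 (log2 9.61, SE 0.17), and the receptor gene Notch4 rose by 3.76 (SE 0.09), with edgeR adjusted p-values of 4.26e-21, 3.04e-19 and 2.30e-17. In ectoderm Dlk2, a gene for a Delta-like protein, and Lfng, another of these sugar transferases, were higher by 6.47 (SE 0.38) and 5.37 (SE 0.35), with edgeR adjusted p-values of 1.60e-11 and 6.14e-11.

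The comparison of genotypes asked whether these genes differ in limb buds that lack some of the Grem1 enhancers. In distal mesenchyme Jag1 had the largest difference of the 6 members tested. In distal mesenchyme its levels were 40.6, 44.0 and 67.7 CPM in Wt, 22.9, 23.3 and 19.5 CPM in E1C8Δ/Δ, and 8.21, 8.72 and 9.39 CPM in E1C5Δ/Δ, the values being in the order of the replicates. The groups did not overlap: every E1C8Δ/Δ library was below every Wt library, and every E1C5Δ/Δ library was below every E1C8Δ/Δ library. Against Wt, the mean of both mutants was lower by 1.84 on the log2 scale (log2 fold change -1.84, SE 0.15, 3.58-fold, edgeR adjusted p = 2.75e-05). The E1C8Δ/Δ difference was -1.20 (SE 0.18, 2.30-fold, edgeR adjusted p = 0.00284) and the E1C5Δ/Δ difference -2.48 (SE 0.19, 5.58-fold, edgeR adjusted p = 2.45e-05), with the same Wt libraries in both. The alleles were also compared with each other, a contrast added after results had been seen: E1C5Δ/Δ was below E1C8Δ/Δ by 1.28 on the log2 scale (log2 fold change -1.28, SE 0.21, edgeR adjusted p = 0.00420).

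The genes that define the distal population moved with genotype as well. Hoxa13 was at 67.2, 54.5 and 73.8 CPM in Wt, 53.3, 63.1 and 71.5 CPM in E1C8Δ/Δ and 15.3, 49.2 and 17.5 CPM in E1C5Δ/Δ, and Hoxd13 at 217 to 259, 166 to 182 and 144 to 159 CPM. Distal cells were 7.12% to 8.94% of mesenchyme in Wt, 4.14%, 5.10% and 8.49% in E1C8Δ/Δ, and 4.10% to 6.03% in E1C5Δ/Δ. E1C5Δ/Δ replicate 2, with 49.2 CPM of Hoxa13 and 159 CPM of Hoxd13, had 8.72 CPM of Jag1 and 47.1 CPM of Hey1. E1C5Δ/Δ replicates 1 and 3 had 8.21 and 9.39 CPM of Jag1 and 30.6 and 31.9 CPM of Hey1. Whether the make-up of the distal population bears on these levels was not tested. When distal cells were taken instead, by alternatives added after seeing the data, as mesenchyme with a Hoxa13 UMI, the Jag1 difference of both mutants was -1.59 (SE 0.17, edgeR adjusted p = 3.35e-04), and with at least 2 Hoxd13 UMIs it was -1.94 (SE 0.15, edgeR adjusted p = 8.19e-06).

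Notch1 was low in distal cells of all genotypes and lower in the mutants. Its levels were 7.77, 8.72 and 9.20 CPM in Wt, 0.740, 6.01 and 5.19 CPM in E1C8Δ/Δ and 3.94, 2.79 and 3.24 CPM in E1C5Δ/Δ. Every mutant library was below every Wt library, and E1C8Δ/Δ replicate 1 rests on 1 UMI. The difference of both mutants was -1.06 (SE 0.23, 2.09-fold, edgeR adjusted p = 0.0287), that of E1C5Δ/Δ -1.32 (SE 0.27, edgeR adjusted p = 0.0295) and that of E1C8Δ/Δ -0.80 (SE 0.28, edgeR adjusted p = 0.0970). Without a filter on low counts the E1C8Δ/Δ difference was -0.83 (SE 0.26, edgeR adjusted p = 0.0283). The E1C5Δ/Δ call was lost without Wt replicate 2 or 3 or any E1C5Δ/Δ library (adjusted p up to 0.161), with sex as a covariate (-1.34, adjusted p = 0.411), with the replicate block (0.0877) and in the Hoxa13 population (-1.38, adjusted p = 0.209). The call for both mutants was lost when any Wt library, E1C8Δ/Δ replicate 3 or E1C5Δ/Δ replicate 3 was left out (adjusted p up to 0.118), with sex as a covariate (-1.07, adjusted p = 0.395) in the Hoxa13 population (-0.79, adjusted p = 0.242), with 3 markers per lineage (0.0724) and without both small libraries (0.0510). Notch2 (14.0 to 26.4 CPM) and Notch3 (21.5 to 34.0 CPM) overlapped between the genotypes, with log2 fold changes of -0.23 (SE 0.19) and -0.14 (SE 0.12) for both mutants (edgeR adjusted p = 0.603 and 0.617).

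Hes1 in distal cells was at 42.2, 67.6 and 43.2 CPM in Wt, 36.3, 41.7 and 38.1 CPM in E1C8Δ/Δ and 24.8, 15.0 and 26.4 CPM in E1C5Δ/Δ. Wt and mutant libraries did not overlap, although Wt replicate 1 and E1C8Δ/Δ replicate 2 were close. The difference of both mutants was -0.78 (SE 0.16, 1.72-fold, edgeR adjusted p = 0.0272), and it did not pass the threshold without Wt replicate 2 (-0.51, adjusted p = 0.168), without any E1C8Δ/Δ library, or with sex as a covariate (-1.02, adjusted p = 0.130). It was also lost with populations gated on all UMIs (-0.63, adjusted p = 0.0795), 3 markers per lineage (-0.65, 0.113), a distal cut of 1 UMI (-0.59, 0.0693) and both small libraries left out (-0.87, 0.0861). The E1C5Δ/Δ difference was -1.16 (SE 0.20, 2.23-fold, edgeR adjusted p = 0.00973), past the threshold whichever library was left out and lost with sex as a covariate, where the difference was -1.43 (SE 0.26, adjusted p = 0.0623). The E1C8Δ/Δ difference was -0.40 (SE 0.20, edgeR adjusted p = 0.224), and without a filter on low counts -0.44 (SE 0.14, edgeR adjusted p = 0.0382).

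Hey1 separated the alleles. Its distal levels were 64.6, 52.9 and 76.7 CPM in Wt, 105, 71.2 and 68.3 CPM in E1C8Δ/Δ and 30.6, 47.1 and 31.9 CPM in E1C5Δ/Δ. Wt and E1C8Δ/Δ overlapped, and every E1C5Δ/Δ library was below every other library. E1C5Δ/Δ was below E1C8Δ/Δ by 1.15 on the log2 scale (log2 fold change -1.15, SE 0.20, 2.22-fold, edgeR adjusted p = 0.00481), which held with each library left out and, at -0.63 (adjusted p = 0.0315), in the Hoxa13 population. Against Wt, the E1C5Δ/Δ difference was -0.85 (SE 0.19, edgeR adjusted p = 0.0397), lost when any of 6 libraries was left out (Wt replicates 1 and 3, E1C8Δ/Δ replicates 2 and 3, E1C5Δ/Δ replicates 1 and 3; adjusted p up to 0.176) in the Hoxa13 population (-0.51, adjusted p = 0.203), with sex as a covariate (-0.78, adjusted p = 0.411), and with the replicate block (0.108), 3 markers per lineage (0.0859), no doublet removal (0.0847), a distal cut of 1 UMI (0.0628) or both small libraries out (0.0960). The E1C8Δ/Δ difference was 0.30 (SE 0.19, edgeR adjusted p = 0.342) and that of both mutants -0.28 (SE 0.16, edgeR adjusted p = 0.413).

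Counted together, 3 of the 6 members tested in distal mesenchyme passed as lower for the mean of both mutants against Wt (Jag1, Notch1 and Hes1). None passed as higher, and the median log2 fold change of the 6 was -0.53. Among all 11082 genes tested 1.66% passed the threshold and 1.03% passed as lower. In E1C8Δ/Δ 1 of 6 passed (Jag1; 7.74% of all genes), in E1C5Δ/Δ 4 of 6 (Jag1, Notch1, Hey1 and Hes1; 1.28%), and between the alleles 3 of 6 (Jag1, Hey1 and Hes1; 8.18%). Jag2, Dll1, Hey2 and Heyl had too few UMIs in distal cells to be tested: Jag2 gave 0 to 0.821 CPM per library and Hey2 0.236 to 2.22 CPM.

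**Figure D2:**
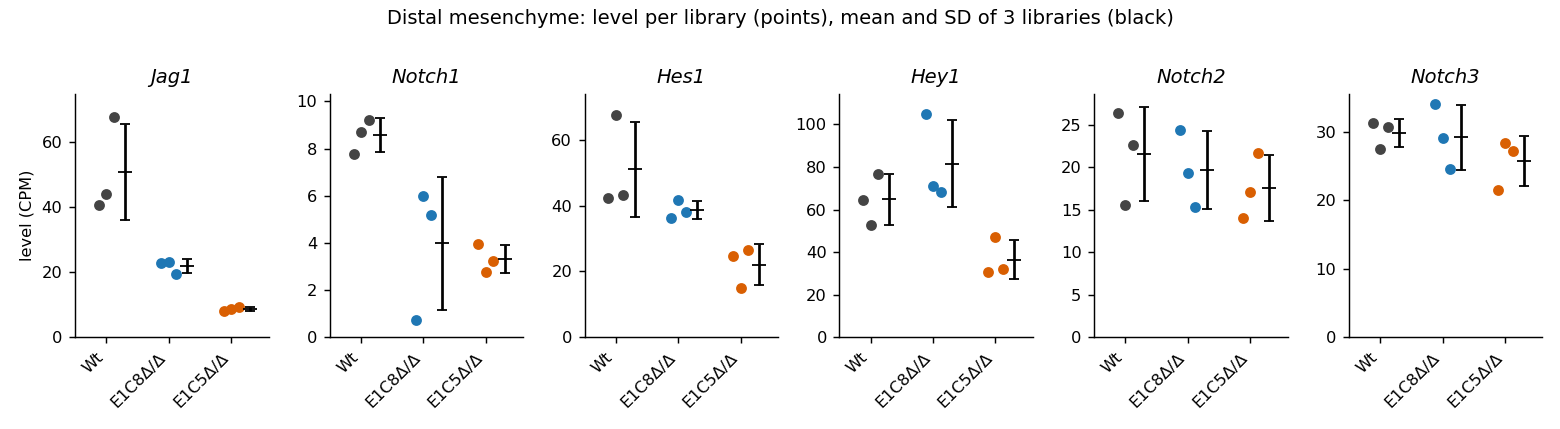
Level (y axis, CPM) of the 6 tested genes in distal mesenchyme of the 3 genotypes (x axis), with 1 point per library and the mean and SD of 3 libraries in black. Jag1 falls in steps from 50.7 ± 14.8 CPM in Wt to 21.9 ± 2.09 in E1C8Δ/Δ and 8.78 ± 0.591 in E1C5Δ/Δ, Hey1 is low in E1C5Δ/Δ alone, and Notch2 and Notch3 overlap between genotypes.

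Of the 42 other pathway genes, 34 were tested in distal mesenchyme and 2 passed for the mean of both mutants against Wt. Nrarp was at 5.67, 9.81 and 10.4 CPM in Wt, 6.66, 6.38 and 6.31 CPM in E1C8Δ/Δ and 3.29, 2.79 and 3.19 CPM in E1C5Δ/Δ. For the mean of both mutants Nrarp was lower by 0.90 (log2 fold change -0.90, SE 0.21, edgeR adjusted p = 0.0395), a call lost when any library other than Wt replicate 1 was left out. In E1C5Δ/Δ it was lower by 1.41 (log2 fold change -1.41, SE 0.25, edgeR adjusted p = 0.0129). Without Wt replicate 2 and E1C5Δ/Δ replicate 3 in turn, the edgeR adjusted p was 0.0653 and 0.0824. The E1C8Δ/Δ levels of Nrarp lay within the Wt range, and its difference from Wt did not pass. With sex as a covariate neither Nrarp call was made (-0.97 and -1.49, adjusted p = 0.392 and 0.223), nor was either in the Hoxa13 population (-0.70 and -1.10, adjusted p = 0.244 and 0.270) or without both small libraries (0.148 and 0.0710). Dlk1, which encodes a Delta-like protein without the domain that activates Notch, was higher by 0.55 (SE 0.12, edgeR adjusted p = 0.0284), at 54.0 to 68.4 CPM in Wt and 66.6 to 96.6 CPM in the mutants; the call was lost without any of 6 libraries (Wt replicates 1 and 2, any E1C8Δ/Δ replicate or E1C5Δ/Δ replicate 1; adjusted p up to 0.135), and with populations gated on all UMIs the difference was 0.02 (adjusted p = 0.986). It was 0.17 with a distal cut of 1 UMI (adjusted p = 0.694), 0.39 with sex as a covariate (0.515) and 0.38 without doublet removal (0.188), and the call was lost in 4 more settings (adjusted p up to 0.391). In E1C8Δ/Δ, Dlk1 was higher by 0.59 (SE 0.14, edgeR adjusted p = 0.0208); that call was lost without Wt replicate 1 or 2 or any E1C8Δ/Δ library (adjusted p up to 0.104), with gates on all UMIs (0.11, adjusted p = 0.821), a distal cut of 1 UMI (0.30, 0.406) or 3 UMIs (0.70, 0.108), the Hoxa13 population (0.66, 0.221), sex as a covariate (0.44, 0.173) and no doublet removal (0.41, 0.118). E1C5Δ/Δ and E1C8Δ/Δ differed in Rbpj (0.53, SE 0.14), Hes6 (-0.56, SE 0.16) and Nrarp (-1.02, SE 0.29), with edgeR adjusted p-values of 0.0336, 0.0417 and 0.0427. The Nrarp difference between the alleles lost its call without any 1 of the 6 mutant libraries (adjusted p up to 0.144) and in 6 other settings (adjusted p up to 0.239).

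In other mesenchyme Notch1 was the member that passed the threshold. In other mesenchyme Notch1 was at 12.5, 12.4 and 14.9 CPM in Wt, 6.99, 9.64 and 7.97 CPM in E1C8Δ/Δ and 5.88, 8.20 and 6.96 CPM in E1C5Δ/Δ. The mutant and Wt libraries did not overlap. Summed over all libraries, Notch1 was at 20.3 CPM in core cells (Sox9 and Col2a1) and 4.21 CPM in peripheral cells (Asb4 and Msx1). Core cells were 11.4% to 18.0% of all mesenchyme in Wt and 4.99% to 8.70% in E1C5Δ/Δ, while E1C8Δ/Δ overlapped with Wt. Peripheral cells were 13.9% to 18.4% in Wt and 23.3% to 25.9% in E1C8Δ/Δ, while E1C5Δ/Δ overlapped with Wt. Whether the make-up of other mesenchyme bears on its Notch1 level was not tested. Notch1 was lower by 0.80 for both mutants (log2 fold change -0.80, SE 0.13, 1.74-fold, edgeR adjusted p = 0.0112), by 0.67 in E1C8Δ/Δ (log2 -0.67, SE 0.15) and by 0.92 in E1C5Δ/Δ (log2 -0.92, SE 0.15), with edgeR adjusted p-values of 0.0216 and 0.0124. Without Wt replicate 3 the adjusted p was 0.0503, without both small libraries 0.0984 and with sex as a covariate 0.189. It was the 1 of 9 tested members to pass there, where 2.22% of all 16074 genes did (8.66% in E1C8Δ/Δ and 1.65% in E1C5Δ/Δ, in which Notch1 was again the 1 member to pass); the log2 fold changes of the other 8 ran from -1.22 (SE 0.37, Heyl, edgeR adjusted p = 0.101) to 0.23 (SE 0.11, Hey1, edgeR adjusted p = 0.264). Jag1 in other mesenchyme was at 6.03, 5.03 and 4.34 CPM in Wt, 5.75, 4.53 and 3.88 CPM in E1C8Δ/Δ and 3.84, 3.97 and 4.75 CPM in E1C5Δ/Δ, with overlap of all groups (log2 -0.23, SE 0.15, edgeR adjusted p = 0.414). Among other pathway genes, Rbpj was lower there in E1C8Δ/Δ against Wt (-0.54, SE 0.13, edgeR adjusted p = 0.0264). In other mesenchyme E1C5Δ/Δ minus E1C8Δ/Δ was 0.48 (SE 0.13) for Rbpj and -0.55 (SE 0.10) for Hes6, with edgeR adjusted p-values of 0.0385 and 0.00918.

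The difference between the populations was itself tested, as an interaction of genotype and population with library as a block. The effect of both mutants was more negative in distal than in other mesenchyme for Jag1 (log2 difference -1.49, SE 0.15, edgeR adjusted p = 9.07e-07), Hes1 (-0.53, SE 0.09, edgeR adjusted p = 9.33e-04) and Hey1 (-0.52, SE 0.12, edgeR adjusted p = 0.0164). For Notch1 the difference was -0.29 (SE 0.17, edgeR adjusted p = 0.47). Thus 3 of 8 tested members passed, against 2.77% of all 13284 genes. The Hey1 call was not made by DESeq2 (adjusted p = 0.406) or without E1C8Δ/Δ replicate 3 (0.0545) or E1C5Δ/Δ replicate 3 (0.0704). For Hey1 the distal effect of both mutants is a mean over opposite signs, 0.30 in E1C8Δ/Δ and -0.85 in E1C5Δ/Δ.

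**Figure D3:**
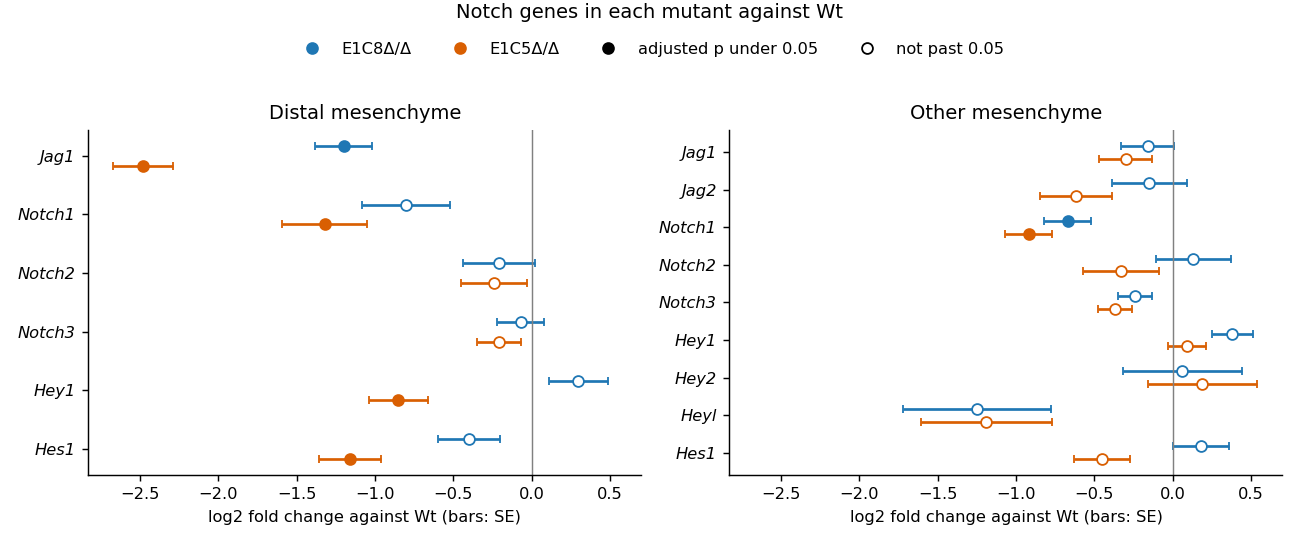
Log2 fold change against Wt (x axis, bars SE) of each tested gene in E1C8Δ/Δ and E1C5Δ/Δ, in distal mesenchyme (left) and other mesenchyme (right), where filled points have an adjusted p under 0.05. The Jag1 values of -1.20 and -2.48 in distal cells contrast with -0.16 and -0.30 in other mesenchyme, and Notch1 is below Wt in both panels.

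In ectoderm, endothelium and muscle no member passed the threshold between genotypes. In ectoderm 0 of 9 tested members passed by edgeR or DESeq2 and 1 had an unadjusted p under 0.05, with log2 fold changes from -0.52 to 0.43; 0 of 10212 genes passed by edgeR (432 at an unadjusted p under 0.05, and 4 by DESeq2), so percent called was 0. These fits had 2 libraries per genotype. In endothelium 0 of 9 members passed by either tool and 0 had an unadjusted p under 0.05, with log2 fold changes from -0.64 to 0.47, where 0.00955% of genes passed. Of 10474 genes there, 500 had an unadjusted p under 0.05. In muscle 0 of 7 members passed by either tool, where 1.46% of genes passed. At an unadjusted p under 0.05 there were 2 of 7 members and 1689 of 11748 genes. Against Wt, 0 of 7 passed in E1C5Δ/Δ by either tool, with a median log2 fold change of -0.52, where 1.45% of genes passed. In E1C5Δ/Δ 5 of the 7 had an unadjusted p under 0.05, as did 1119 of 11748 genes. The 5 were Dll1, Notch2, Notch3, Hey1 and Hes1, with estimates from -2.12 to -0.50. In E1C8Δ/Δ 0 of 7 passed by either tool and 0 had an unadjusted p under 0.05, with a median of -0.03, where 3.49% of genes passed. Of 11748 genes in that contrast, 2471 had an unadjusted p under 0.05. The lowest estimate for both mutants was that of Dll1, at 2.96, 1.39 and 3.56 CPM in Wt, 3.90, 0.822 and 0.317 CPM in E1C8Δ/Δ and 1.14, 0.299 and 0.141 CPM in E1C5Δ/Δ. E1C8Δ/Δ replicate 1, with 4 UMIs, was above all Wt libraries, whereas the other 5 mutant libraries were below them (log2 -1.85, SE 0.58, edgeR adjusted p = 0.158; 0.00162 when genes with low counts were not filtered out). Jag1 in ectoderm was at 23.4 and 49.6 CPM in Wt and 22.2 to 35.9 CPM in the mutants, with overlap (log2 -0.17, SE 0.29, edgeR adjusted p = 0.982). Other pathway genes passed in muscle. In E1C5Δ/Δ against Wt these were Lfng (log2 -2.55, SE 0.55) and Hes6 (-0.87, SE 0.17), with edgeR adjusted p-values of 0.0300 and 0.0190. Rbpj was lower in E1C8Δ/Δ against Wt (-0.55, SE 0.13, edgeR adjusted p = 0.0335). In muscle E1C5Δ/Δ minus E1C8Δ/Δ was 0.51 (SE 0.13) for Rbpj and -0.93 (SE 0.18) for Hes6, with edgeR adjusted p-values of 0.0388 and 0.0144.

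The share of distal cells with at least 1 Jag1 UMI, at 10000 UMIs per cell, was 29.2%, 26.4% and 41.0% in Wt, 13.5%, 18.8% and 13.8% in E1C8Δ/Δ and 6.45%, 7.79% and 7.87% in E1C5Δ/Δ. The shares followed the levels without overlap between genotypes. The mean over the 6 mutant libraries was 11.4% ± 4.80 (SD) and over the 3 Wt libraries 32.2% ± 7.74, a difference of -20.8 percentage points (p = 0.0238, two-sided exact permutation test, the smallest p this design can give). With all UMIs of each cell the difference was -31.6 points, and with distal cells taken by a Hoxa13 UMI it was -13.2 points (both p = 0.0238, exact permutation test). Without any 1 Wt library p was 0.0714, the smallest that 2 against 6 libraries can give in the exact permutation test, so that design cannot pass the threshold. For comparison, 8 of 2038 red blood cell precursors (0.393%) had a Jag1 UMI at the same depth, and 2.25% to 5.47% of other mesenchyme did. The share of distal cells with a Hey1 UMI was 37.4%, 31.2% and 49.2% in Wt, 45.9%, 40.8% and 40.1% in E1C8Δ/Δ and 18.5%, 33.8% and 22.8% in E1C5Δ/Δ, against 0.883% of red blood cell precursors. Over all mutants its difference was -5.62 points (p = 0.524, two-sided exact permutation test), and with all UMIs of each cell -10.9 points (p = 0.0238, exact permutation test). The shares with all UMIs, for Jag1 and Hey1, are not at equal depth. Median UMIs per distal cell were 33452, 41438 and 62275 in Wt and 31786, 18589 and 27413 in E1C8Δ/Δ. They were 46596, 34348 and 37200 in E1C5Δ/Δ. The part of depth in these differences was not tested.

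Hey1 was also compared between distal cells with and without a Jag1 UMI of the same library, at equal depth, in the 6 libraries with at least 20 cells of each kind. Hey1 levels in cells with and without Jag1 were 72.9 and 50.6 CPM in Wt replicate 1, 74.6 and 32.7 in Wt replicate 2, and 100 and 86.1 in Wt replicate 3. They were 77.1 and 57.5 in E1C8Δ/Δ replicate 2, 89.2 and 63.4 in E1C8Δ/Δ replicate 3, and 36.7 and 28.8 in E1C5Δ/Δ replicate 3. Cells with Jag1 were the higher in 6 of 6 libraries. The difference was 0.60 on the log2 scale (SE 0.12, 1.52-fold, edgeR adjusted p = 1.86e-04), lost without Wt replicate 2 (0.41, adjusted p = 0.112) and when 2 UMIs were asked for (adjusted p = 0.567, with 2 libraries left). Notch2, Notch3 and Hes1 did not pass (log2 0.29, SE 0.20; -0.23, SE 0.18; and 0.19, SE 0.13; edgeR adjusted p = 0.602, 0.664 and 0.600), so 1 of 4 tested members did, against 2.82% of 7825 genes. Dlk1 was lower in the cells with Jag1 (log2 -1.26, SE 0.12, edgeR adjusted p = 2.25e-14).

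**Figure D4:**
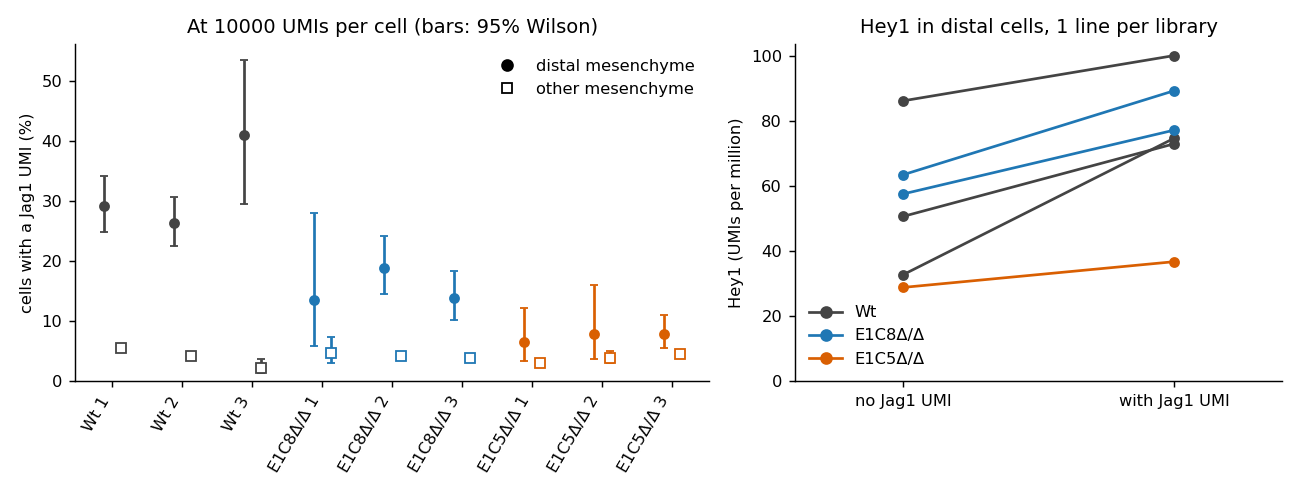
Left, share of cells with a Jag1 UMI (y axis, percent) in distal (circles) and other mesenchyme (squares) of each library, with 95% Wilson intervals; right, Hey1 level (y axis, CPM) in distal cells without and with a Jag1 UMI, 1 line per library. The Wt shares of 26.4% to 41.0% lie above all mutant shares, and every line on the right rises.

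Genes whose level across the 40 sums of population and library was most like that of each member, among 12452 genes, are given as a description; the sums share libraries and differ in depth. They were Arid3a for Jag1 (Pearson r = 0.784), Alox12 for Jag2 (0.936), Tbc1d4 for Dll1 (0.913), Jup for Notch1 (0.964), Mfap4 for Notch2 (0.917), Lrp3 for Notch3 (0.936), Lmo2 for Hey1 (0.916), Mrgpre for Hey2 (0.729), Erbb3 for Heyl (0.911) and Ass1 for Hes1 (0.902). Jag1 and Hey2 had the lowest of these values.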

How the data were processed

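Single-cell RNA-seq libraries of forelimb bud pairs (3 each of Wt, E1C8Δ/Δ and E1C5Δ/Δ) were used as deposited UMI counts, whole numbers per gene and barcode that the authors made with Cell Ranger 6.0.1 against mm10, with Seurat 4.3.0.1 also named in the submitters' processing notes. The authors' cell filters were applied here (over 2500 genes, under 200000 UMIs, under 10% mitochondrial UMIs). Doublets were removed by simulated neighbours, and cells under 10000 UMIs were left out. Populations were gated on markers at 10000 UMIs per cell, and all UMIs of the gated cells were summed per library, with at least 20 cells. Sums were tested with edgeR 4.0.16 (quasi-likelihood, R 4.3.3), adjusted over all genes tested, without genes on X and Y and 4 transgene features; DESeq2 1.42.0 was an alternative. CPM use edgeR's effective library sizes, so values differ slightly between fits. The fits between genotypes and between populations were tested on simulated counts. Of 200 genes changed by 1 on the log2 scale, 96% were recovered for genotype in distal mesenchyme and 65% in ectoderm, with 14 and 10 false calls. The fits of the interaction and of cells with and without Jag1 were not tested in that way. Intervals cover counting error only. Libraries came from separate embryos. The genes named are the 10 members, other pathway genes past the threshold between genotypes, some of those with the largest changes between populations, and the gene most like each member. The members and lists were chosen with earlier results of these data known. Alternatives are listed in the closing section. Same-numbered replicates were not treated as pairs, and ridge cells were too few to test. Results of 1 pathway gene are not reported here.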

Additional observations from a re-analysis of the deposited data

Results flagged for a closer look

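Jag1, Hey1 and Hes1 were set apart because the mean effect of both mutants differed between distal and other mesenchyme in a test of the difference itself: by -1.49 on the log2 scale for Jag1 (edgeR adjusted p = 9.07e-07), -0.52 for Hey1 (adjusted p = 0.0164) and -0.53 for Hes1 (adjusted p = 9.33e-04). For Hey1 the distal differences from Wt had opposite signs, 0.30 in E1C8Δ/Δ and -0.85 in E1C5Δ/Δ. The Hey1 call was lost with DESeq2 (adjusted p = 0.406). By edgeR it was lost without E1C8Δ/Δ replicate 3 (adjusted p = 0.0545) or E1C5Δ/Δ replicate 3 (adjusted p = 0.0704).

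The same genes were set apart because the alleles differed from each other in distal mesenchyme: E1C5Δ/Δ minus E1C8Δ/Δ was -1.28 for Jag1 (edgeR adjusted p = 0.00420), -1.15 for Hey1 (adjusted p = 0.00481) and -0.76 for Hes1 (adjusted p = 0.0412), a contrast added after results had been seen. Hoxa13, which helps to define the distal cells, was at 15.3 to 49.2 CPM in E1C5Δ/Δ and 53.3 to 71.5 CPM in E1C8Δ/Δ; with distal cells taken by a Hoxa13 UMI alone the differences were -0.96 (adjusted p = 0.0408), -0.63 (0.0315) and -1.13 (0.0175) by edgeR. The Hes1 difference lost its call without any 1 of 6 libraries (adjusted p up to 0.158), with distal cells taken by 2 Hoxd13 UMIs (-0.72, adjusted p = 0.0508), a distal cut of 3 UMIs (0.0863), 3 markers per lineage (0.0655), the replicate block (0.0909) and both small libraries left out (0.0754).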

How the results depend on the processing

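Of 74 single-gene results past the threshold, recomputed 1135 times under other settings, 978 values kept their call, 157 lost it and 0 changed direction. For single-gene results short of the threshold, 6 of 473 recomputed values gained a call. Jag1 in distal mesenchyme kept its call in both mutants, in each mutant and between the alleles under every setting run, as did Jag1 and Hes1 in the difference between distal and other mesenchyme and Hey1 between the alleles. Few UMIs limit Dll1, Hey2, Heyl and Jag2 in distal mesenchyme, and ectoderm rests on 449 cells. The cause of the changes below was not tested. A test of ridge against other ectoderm was not run, since 1 library reached the minimum of 10 ridge cells. Between populations the counts of genes past the threshold stayed within 1.5 times under every alternative run.

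Genes past the threshold between both mutants and Wt numbered 184 in distal mesenchyme, 357 in other mesenchyme, 0 in ectoderm, 1 in endothelium and 172 in muscle. Without a filter on low counts they numbered 660, 552, 72, 97 and 544. With embryo sex as a covariate they numbered 10, 6, 1, 0 and 2. With DESeq2 they numbered 1020 in other mesenchyme, 4 in ectoderm and 4 in endothelium. With populations gated on all UMIs, ectoderm had 2 and muscle 15, and with 3 markers per lineage endothelium had 2. A distal cut of 3 UMIs gave 88. Chosen after seeing the data, a distal population by 1 Hoxa13 UMI gave 82, and leaving out both small libraries (Wt replicate 3 and E1C8Δ/Δ replicate 1) gave 50 in distal mesenchyme, 31 in other mesenchyme and 32 in muscle. Leaving out 1 library gave 99 to 253, 118 to 906, 0 to 57, 0 to 10 and 54 to 174 in the 5 populations in that order; in distal mesenchyme the lowest came without Wt replicate 2 (99) and the counts were 104, 111 and 115 without Wt replicate 3, E1C8Δ/Δ replicate 1 and E1C8Δ/Δ replicate 2, and 906 in other mesenchyme and 57 in ectoderm came without E1C5Δ/Δ replicate 3.

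With the replicate number as a block the counts were 102 in distal mesenchyme, 106 in other mesenchyme, 30 in ectoderm and 92 in muscle, and Notch1 and Hes1 lost their calls in distal mesenchyme (adjusted p = 0.0770 and 0.0756). Nothing in the labels pairs same-numbered libraries. Same-numbered libraries of different genotypes had correlations of their deviations from -0.178 to 0.076, and others up to 0.292. These correlations cannot tell whether same-numbered libraries shared a batch.

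For the difference between distal and other mesenchyme, 368 genes passed, 213 with DESeq2, 241 without both small libraries and 184 to 389 without 1 library. For cells with and without Jag1, 221 passed, 79 with DESeq2, 29 from 2 UMIs and 134 to 217 without 1 library. The Jag1 share difference was -16.9 points without both small libraries (p = 0.0952, exact permutation test, the smallest that 2 against 5 libraries can give) and -23.7 to -16.4 without 1 library. The Hey1 share difference was -10.9 points with all UMIs, where depth was not equal, and -9.63 to -0.669 without 1 library.

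The values that changed sign were all short of the threshold. They were Jag1 in other mesenchyme (0.20, gates on all UMIs), Hey2 in other mesenchyme (-0.01, both small libraries out), Hey2 in ectoderm against mesenchyme (0.13 with gates on all UMIs, 0.03 without doublet removal), Hey1 in muscle against mesenchyme (0.07, 3 markers), Notch3 in the difference between populations (-0.01, cut of 3 UMIs), Hey2 there (0.11 with DESeq2, 0.14 with a cut of 3 UMIs) and Notch3 in cells with Jag1 (0.06, from 2 UMIs). Without 1 library the ranges were -0.29 to 0.05 for Notch2, -0.07 to 0.34 for Hey2 and -0.31 to 0.14 for Hes1 in other mesenchyme, -1.03 to 0.01 for Hey2 in ectoderm, -0.07 to 0.07 for Hey1 in muscle, and -0.17 to 0.33 for Hey2 in the difference between populations.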

Other observations

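The apical ectodermal ridge, the signalling rim of the limb bud taken here as ectoderm with at least 2 Fgf8 UMIs, held 42 cells in all, and the values are sums over libraries without a test. Jag2 was at 97.7 CPM (of all UMIs) in ridge cells (95% Poisson interval 80.1 to 118, counting error only) and 61.5 (57.4 to 65.9) in other ectoderm. Notch1 was at 41.6 (30.5 to 55.5) and 133 (127 to 139), and Hes1 at 50.7 (38.3 to 65.8) and 148 (142 to 155). Jag1 was at 19.9 (12.5 to 30.1) in ridge cells and 33.3 (30.3 to 36.5) in other ectoderm.

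For 4 of the genes, levels in 3 overlapping populations of mesenchyme are given as sums over all libraries, without a test; the sums pool the genotypes and libraries of unequal size (95 to 1596 peripheral cells per library). Hey1 was at 21.2 CPM in peripheral cells (Asb4 and Msx1), 4.90 in core cells (Sox9 and Col2a1) and 4.66 in proximal cells (Meis1 and Meis2). Notch1 was at 4.21 in peripheral, 20.3 in core and 10.2 in proximal cells, and Jag1 at 6.82, 3.42 and 3.28 in the same order. Hes1 was at 27.7 in peripheral and 55.6 in core cells.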
